A study of Homo sapiens and Mus musculus with 10 samples.

Results

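Accessible chromatin was examined at 10 genes of the fibroblast extracellular matrix and cell surface, collagens aside: FN1, FBN1, ELN, LOX, LUM, POSTN, SPARC, THY1, PDGFRA and PDGFRB. They were selected by name from what is known of fibroblasts, with no measured value in the rule. Earlier results of these data were known when they were chosen. They are 10 of the 19962 protein-coding genes on the autosomes and X in GENCODE release 44 (GRCh38). For each, peaks were taken within 1 kb of any annotated start site, inside the gene body, and within 50 kb of either end. Short-read bulk ATAC-seq, in which the Tn5 transposase inserts sequencing adapters into accessible DNA, had been run on 4 human lines with 2 libraries each, for 8 libraries. HFF1 is a foreskin fibroblast line and was grown in DMEM with serum, as was HEK293T, derived from embryonic kidney and expressing SV40 large T antigen. GM12878, a B-lymphoblastoid line transformed with Epstein-Barr virus, and K562, an erythroleukaemia line, were grown in RPMI-1640 with serum. No line had a named treatment, and HFF1 is the only fibroblast line among them, so "HFF1" and "fibroblast" cannot be told apart. The labels do not say whether the 2 libraries of a line came from separate cultures, so the p-values given here measure only the spread between these libraries, which may be technical.

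Fibroblasts build and tend the connective tissue matrix. Fibronectin, encoded by FN1, forms adhesive fibrils that cells grip through integrins, and fibrillin-1 (FBN1) microfibrils carry the elastin (ELN) that lysyl oxidase (LOX) cross-links into elastic fibres. Lumican (LUM), periostin (POSTN) and SPARC bind collagen and tune how the matrix assembles, while the PDGF receptors alpha and beta (PDGFRA, PDGFRB) are tyrosine kinases that drive growth and migration of mesenchymal cells, and THY1 is a lipid-anchored glycoprotein of the fibroblast surface. Accessible DNA is found at start sites and at distal regulatory elements, and the distal part is usually the more cell-type specific.

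Peaks of the 8 libraries were merged into regions, and a region was called HFF1-only when both HFF1 libraries and none of the other 6 libraries had a peak in it. Of the regions called in HFF1, 6 of 18 at the start sites of these genes were HFF1-only (33.3%), 33 of 48 in the rest of their bodies (68.8%) and 50 of 83 within 50 kb (60.2%). The same order held over all protein-coding genes, at 19.1%, 60.4% and 48.8%, so it is not particular to these genes. Those shares place a region by any protein-coding gene, start before body before flank, while regions here were placed by the named gene alone. The 50 kb set here thus includes starts and bodies of neighbouring genes, which the 48.8% leaves out. For 8 of the 10 genes the 200 bp around the summit of the strongest HFF1-only region, ranked by the lower of the 2 HFF1 peak folds, are shown as examples of DNA called accessible in the fibroblast line and in no other library; they were picked for that and are a description. They are given 5′ to 3′ on the plus strand of GRCh38, in lower case, and capitals mark the matches to the 4 motifs searched.
FN1 (chr2:215460758-215460957): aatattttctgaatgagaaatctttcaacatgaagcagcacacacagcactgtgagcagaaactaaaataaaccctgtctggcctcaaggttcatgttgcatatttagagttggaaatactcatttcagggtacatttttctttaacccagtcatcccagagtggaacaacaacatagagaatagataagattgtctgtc
FBN1 (chr15:48440136-48440335): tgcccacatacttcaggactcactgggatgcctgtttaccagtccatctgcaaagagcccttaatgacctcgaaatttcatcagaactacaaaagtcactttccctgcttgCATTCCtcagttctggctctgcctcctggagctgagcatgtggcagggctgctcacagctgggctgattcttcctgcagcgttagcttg
LOX (chr5:122093477-122093676): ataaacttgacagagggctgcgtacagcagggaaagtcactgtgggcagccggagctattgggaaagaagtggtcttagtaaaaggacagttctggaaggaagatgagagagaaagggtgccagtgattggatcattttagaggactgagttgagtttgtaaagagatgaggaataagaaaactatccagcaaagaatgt
LUM (chr12:91133919-91134118): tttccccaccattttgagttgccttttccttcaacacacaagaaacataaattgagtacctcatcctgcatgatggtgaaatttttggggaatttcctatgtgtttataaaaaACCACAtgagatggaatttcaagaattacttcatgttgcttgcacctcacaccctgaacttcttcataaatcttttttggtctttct
POSTN (chr13:37540319-37540518): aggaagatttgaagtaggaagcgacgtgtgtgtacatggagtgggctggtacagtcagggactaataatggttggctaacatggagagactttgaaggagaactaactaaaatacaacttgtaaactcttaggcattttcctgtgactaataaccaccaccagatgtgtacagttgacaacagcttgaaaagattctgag
SPARC (chr5:151707623-151707822): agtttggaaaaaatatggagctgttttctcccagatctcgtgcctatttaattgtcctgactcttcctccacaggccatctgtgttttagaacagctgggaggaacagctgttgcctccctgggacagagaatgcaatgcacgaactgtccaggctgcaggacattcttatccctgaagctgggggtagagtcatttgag
THY1 (chr11:119460664-119460863): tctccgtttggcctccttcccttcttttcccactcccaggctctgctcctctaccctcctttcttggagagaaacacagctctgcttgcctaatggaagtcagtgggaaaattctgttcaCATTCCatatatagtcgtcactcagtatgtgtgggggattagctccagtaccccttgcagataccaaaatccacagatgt
PDGFRA (chr4:54197334-54197533): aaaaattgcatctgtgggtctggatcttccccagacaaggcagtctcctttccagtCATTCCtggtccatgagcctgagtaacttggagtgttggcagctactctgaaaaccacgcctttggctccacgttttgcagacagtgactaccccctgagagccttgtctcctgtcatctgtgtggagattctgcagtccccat
In the order shown, the folds of these regions in HFF1 replicates 1 and 2 were 13.7 and 14.0 (FN1), 15.9 and 15.4 (FBN1), 11.1 and 11.4 (LOX), 10.6 and 11.9 (LUM), 15.7 and 14.2 (POSTN), 9.76 and 10.3 (SPARC), 13.9 and 15.5 (THY1) and 14.7 and 13.1 (PDGFRA). A peak's fold is the authors' own ratio of its summit over the local background of that library, and folds are given to describe peaks within a list, not to compare libraries. The FBN1 window lies in an intron of FBN1 and the PDGFRA window in an intron of the overlapping gene ENSG00000282278, upstream of PDGFRA. The other 6 windows lie between genes. The strongest HFF1-only regions of ELN and PDGFRB had lower folds, 7.13 and 7.27 at ELN and 7.06 and 7.02 at PDGFRB, and are not shown.

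Across the whole series, the lists held 127359 and 120344 peaks in HFF1, 101704 and 103715 in GM12878, 78601 and 71241 in K562, and 52438 and 52137 in HEK293T. A background level recovered from the lists, proportional to sequencing depth, was lowest in HEK293T, at 0.465 to 0.466 reads, against 1.71 to 1.73 for GM12878, 1.97 to 2.21 for K562 and 2.06 to 2.43 for HFF1. HFF1 therefore had the longest lists and HEK293T the shallowest libraries. A peak missing from HEK293T was only not called at that depth, which does not show it absent. Start-site peaks in both libraries of a line, which 67.8% to 76.2% of all genes had, were then counted for marker lists. They were found for 6 of 6 fibroblast markers in HFF1 and 3 or 4 in the other lines, and for 5 of 5 B cell markers in GM12878 and 2 in each other line. Embryonic kidney markers had 5 of 5 in HEK293T, 3 in HFF1, 3 in GM12878 and 2 in K562, and erythroid markers had 4 of 5 in K562, where KLF1 had none, and 1 in each other line. In HFF1, 4 of 5 keratinocyte markers also had such a peak, with KRT14 at 0 (3 in GM12878, 1 in HEK293T and 1 in K562), and 2 of 5 endothelial markers, with PECAM1, CDH5 and VWF at 0. The part of other cell types in the results was not tested.

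Start sites were compared first. A peak within 1 kb of any annotated start site was present in both HFF1 libraries for 9 of the 10 genes, against 76.2% of all protein-coding genes. The corresponding numbers were 8 genes in both GM12878 libraries (71.9% of all genes), 6 in both HEK293T libraries (67.8%) and 5 in both K562 libraries (70.4%). All 8 libraries had a start-site peak at 4 of the genes, FN1, SPARC, ELN and PDGFRA, where 59.7% of all genes had one. None of the 10 genes had a start-site peak in both HFF1 libraries and no other library, and 2.05% of all genes did. Against so small a share, a count of 0 among 10 genes says little about these genes. Using the canonical start alone, 9 genes had a peak in both HFF1 libraries (71.6% of all genes) and 0 had one there only (2.76%).

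**Figure D1:**
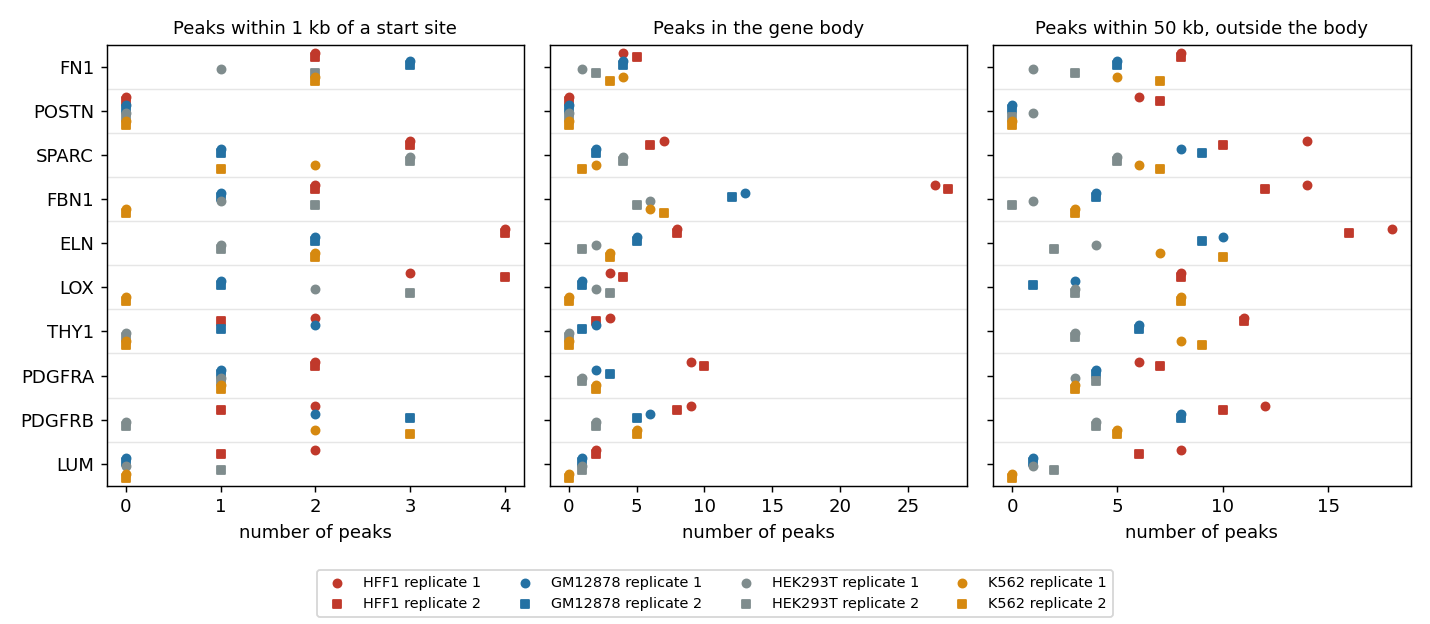
Number of peaks per library (x axis) at the start sites, in the body and within 50 kb of each of the 10 genes (y axis); colours are the 4 lines and marker shapes the 2 replicates. The start-site numbers of HFF1 lie above those of all other libraries at ELN and PDGFRA, POSTN has no peak at its start or in its body in any library, and in the 50 kb panel the HFF1 points lie to the right of the others for every gene but LOX.

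Peak numbers in the bodies and flanks were compared next. The number of peaks overlapping the gene body, which includes peaks at starts inside it, was higher in both HFF1 libraries than in each of the other 6 libraries for 6 genes (SPARC, FBN1, ELN, PDGFRA, PDGFRB and LUM), where 19.3% of all protein-coding genes met that rule. The number of peaks within 50 kb, outside the body and start windows, was higher in HFF1 for 9 genes, all but LOX, and 25.9% of all genes met that rule. LUM met the body rule through its start peak and no longer met it when summits were counted in place of overlaps, which left 5 genes. These counts move with list length. With only the 40000 strongest peaks of each library, the body count was 2 (FN1 and FBN1; 7.09% of all genes) and the 50 kb count 3 (POSTN, FBN1 and LUM; 8.64%). With only the peaks that would still be called at the depth of HEK293T, a setting chosen after seeing the data, the body count was 6 (FN1, FBN1, ELN, THY1, PDGFRA and PDGFRB; 12.4% of all genes) and the 50 kb count 6 (FN1, POSTN, FBN1, ELN, PDGFRA and LUM; 16.6%). FBN1 was counted in both zones under all 3 settings.

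The covered length of each gene body with its start windows, and that of its 50 kb flanks, was then scaled to the total covered length of the library, in bp per Mb covered by all its peaks, and compared by limma on the log2 scale with 10 added. Differences below are HFF1 minus the mean of the other 3 lines, with their standard error (SE), and p-values are Benjamini-Hochberg adjusted over all genes tested and called at 0.05. Of the 9 genes tested for the body, 8 were higher in HFF1 and 0 lower, where 19.6% of all 16725 genes tested were higher and 49.4% lower. Within 50 kb, 8 of the 10 genes were higher and 0 lower, where 21.3% of 18980 genes were higher and 46.4% lower. The median over all genes was -0.281 for bodies and -0.222 within 50 kb, so the differences of single genes are read against those values. Genes were tested where the mean over all 8 libraries, HFF1 included, was at least 5. The THY1 body and the POSTN flanks passed that filter only through HFF1. Without it, 8 of the 10 genes were higher and 0 lower in each zone. Of all 19962 genes, 3398 were then higher and 8154 lower for the body, and 3932 and 8744 within 50 kb. The median over genes and the higher-to-lower split depend on the scaling: without scaling, 9980 gene bodies were higher and 1344 lower and the medians were 0.398 (bodies) and 0.55 (50 kb), and 13590 and 1474 genes were called within 50 kb. With scaling by the median of ratios, 5496 bodies were higher and 3996 lower, 6334 and 5276 genes were called within 50 kb, and the medians were 0.034 and 0.032.

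**Figure D2:**
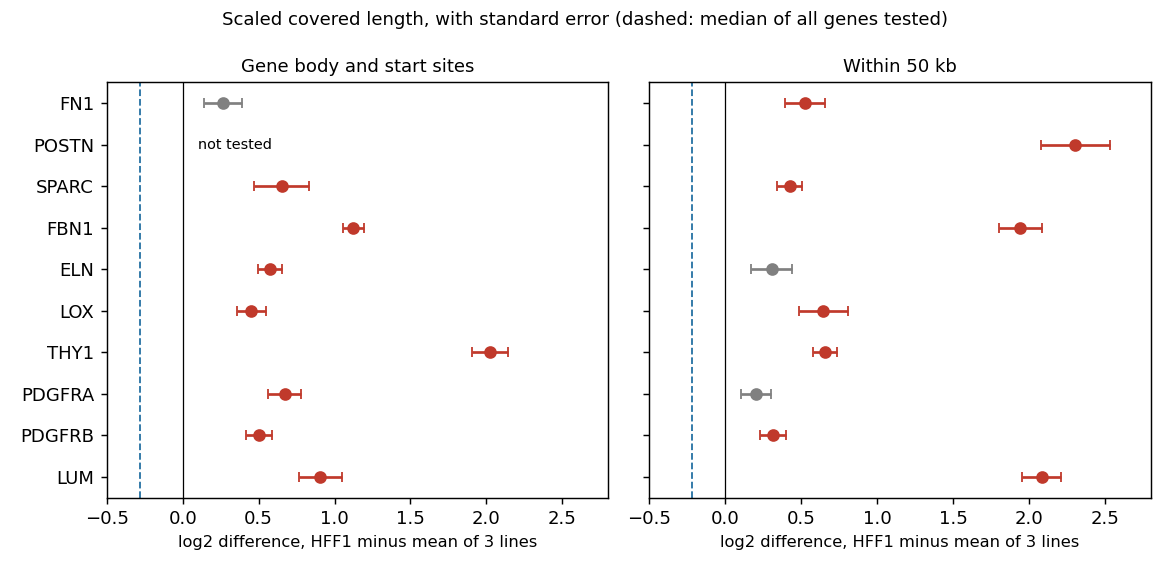
Log2 difference in scaled covered length (x axis), HFF1 minus the mean of GM12878, HEK293T and K562, for the gene body with its start windows and for the 50 kb on either side of each gene (y axis); points are fitted differences, bars their standard errors, and the dashed line the median of all genes tested. With 10 added, THY1 stands at 2.02 for the body, and POSTN, LUM and FBN1 at 2.31, 2.08 and 1.94 within 50 kb. The order of these genes changes with the constant added. THY1 for the body and POSTN within 50 kb passed the filter only through HFF1.

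Against single lines, which share the same HFF1 libraries, body length was higher in HFF1 than in GM12878 for 8 of the 9 genes (19.2% of all genes tested), than in HEK293T for 4 (21.0%) and than in K562 for 7 (19.1%). Within 50 kb the numbers were 7 of 10 against GM12878 (19.8%), 8 against HEK293T (26.8%) and 6 against K562 (18.4%). Single-line differences were run with this scaling only. The HFF1 lists were the longest, and how the single-line calls depend on scaling was not tested.

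FN1 (ENSG00000115414.21, chr2:215360440-215436073, minus strand, 75.6 kb) encodes fibronectin. Its canonical start was open in every library: the region chr2:215435442-215436997 had folds of 7.21 and 7.59 in HFF1, 8.78 and 8.45 in GM12878, 8.88 and 12.4 in HEK293T, and 8.76 and 9.81 in K562. All 4 lines thus shared an open FN1 start. Inside the gene, HFF1-only regions lay at chr2:215410772-215411518, within 1 kb of an internal annotated start (folds 14.0 and 13.3), and at chr2:215396562-215397072 (11.6 and 10.8). Gene body peaks numbered 4 and 5 in HFF1, 4 and 4 in GM12878, 1 and 2 in HEK293T, and 4 and 3 in K562, and these ranges overlapped.

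Scaled body length at FN1 was 64.8 and 66.4 in HFF1, 42.2 and 50.8 in GM12878, 44.1 and 62.7 in HEK293T, and 63.8 and 56.9 in K562. HFF1 was the highest, by a margin of about 1 bp per Mb over the nearest library, and the difference of 0.27 (SE 0.12) did not pass the test (adjusted p = 0.0901). It did pass with the 40000 strongest peaks (1.04, adjusted p = 0.00182), at HEK293T depth (0.53, adjusted p = 0.0138), under both other scalings (1.06 and 0.63) and without HEK293T replicate 2 (0.34, adjusted p = 0.0121). Within 50 kb, where ATIC also has a start, HFF1 had 82.1 and 92.1 against 41.7 to 69.8 in the other libraries, and the difference was 0.52 (SE 0.13, adjusted p = 0.00768). That call was lost without HFF1 replicate 2 (adjusted p = 0.0968), with 40000 peaks (0.0587) and with a distance of 20 kb (0.106).

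FBN1 (ENSG00000166147.15, chr15:48408313-48645721, minus strand, 237.4 kb), the gene of the microfibril protein fibrillin-1, is the longest of the 10 and held the most HFF1-only regions, 26 of the 36 regions called in HFF1. The start region chr15:48644618-48646366 was open in HFF1 (6.44 and 6.77), GM12878 (8.14 and 7.49) and HEK293T (7.29 and 6.19), and no K562 library had a peak there. Gene body peaks numbered 27 and 28 in HFF1, 13 and 12 in GM12878, 6 and 5 in HEK293T, and 6 and 7 in K562. Both HFF1 numbers were above those of every other library, and GM12878 came next. Of the regions in the body away from start sites, 17 of 23 called in HFF1 were HFF1-only, and they were spread over the whole gene, from 18352 bp to 233240 bp downstream of the canonical start.

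Scaled body length at FBN1 was 237 and 260.8 in HFF1, 108.9 and 113.3 in GM12878, 139.5 and 145.5 in HEK293T, and 77.1 and 84.5 in K562. The groups did not overlap, and the difference was 1.12 (SE 0.07, adjusted p = 2.94e-05). Within 50 kb, where no other protein-coding gene lies, HFF1 had 86.3 and 86.2, GM12878 28.0 and 26.7, HEK293T 3.22 and 0, and K562 24.4 and 28.9. That difference was 1.94 (SE 0.14, adjusted p = 1.63e-05). HFF1 was higher than each single line in both zones, and neither call was lost under any of the alternatives run (18 for the body, 20 within 50 kb). The size within 50 kb did move, to 0.96 at a distance of 20 kb, 0.38 at 100 kb and 1.02 with 50 added. FBN1 also held 11 regions called in another line with no HFF1 peak, such as chr15:48433414-48434061, an intronic GM12878 region with folds of 13.2 in both libraries.

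ELN (ENSG00000049540.19, chr7:74027789-74069907, plus strand, 42.1 kb) encodes elastin, the core of the elastic fibre. A region just upstream of the canonical start, chr7:74026721-74027286, was open in all 8 libraries (folds 5.22 to 10.21). Next to it, chr7:74027738-74028095, whose summit lies -198 bp from the canonical start (minus marks upstream), had a peak in HFF1 only, with low folds of 3.94 and 3.17. An exonic HFF1-only region, chr7:74043231-74043758, lay at an internal annotated start (5.86 and 6.04). Gene body peaks numbered 8 and 8 in HFF1, 5 and 5 in GM12878, 2 and 1 in HEK293T, and 3 and 3 in K562, with no overlap between HFF1 and the rest.

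Scaled body length at ELN was 69.7 and 74.0 in HFF1, 50 and 52 in GM12878, 35.4 and 33.3 in HEK293T, and 56.1 and 46.7 in K562. The difference was 0.58 (SE 0.08, adjusted p = 0.000681), and it was lost with 40000 peaks (0.15, adjusted p = 0.522). Within 50 kb, which includes a start of LIMK1, HFF1 had 122.3 and 116.6, below both GM12878 libraries (142.1 and 147.5) and above HEK293T (62.1 and 37.7). K562, at 109.5 and 124.3, overlapped HFF1. Unscaled, HFF1 had 6509 and 5675 bp, GM12878 5756 and 6058 bp, and K562 3293 and 3410 bp. The difference of 0.30 (SE 0.14) did not pass (adjusted p = 0.0763). It passed without either HEK293T library (0.40 without replicate 1 and 0.21 without replicate 2), with a distance of 100 kb (0.37) and under both other scalings (1.11 and 0.58).

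LOX (ENSG00000113083.15, chr5:122063195-122078413, minus strand, 15.2 kb) encodes the enzyme that cross-links elastin and collagen, and 2 of its 7 regions called in HFF1 were HFF1-only, the lowest share among the 10 genes. The start region chr5:122076702-122078736 was open in HFF1 (8.19 and 7.39), GM12878 (8.53 and 6.94) and HEK293T (9.10 and 9.14) and had no peak in K562. Scaled body length was 28.3 and 31.1 in HFF1, 14.0 and 11.9 in GM12878, 105.5 and 87.9 in HEK293T, and 0 in both K562 libraries. Unscaled, 1505 and 1515 bp were covered in HFF1 and 1833 and 1483 bp in HEK293T, which overlapped. On the scaled measure HEK293T was the highest line, and HFF1 was lower than HEK293T (-1.42, adjusted p = 7.17e-05) and higher than GM12878 (0.79, adjusted p = 0.00140). The mean contrast of 0.45 (SE 0.10, adjusted p = 0.00455) combines these, and it was lost with 50 added in place of 10 (0.05, adjusted p = 0.456).

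Within 50 kb of LOX, where SRFBP1 has a start, K562 had the most scaled length, 88.9 and 102.3, against 59.2 and 63.8 in HFF1, 36.5 in both HEK293T libraries, and 14 and 5.67 in GM12878. Unscaled, HFF1 was above K562, at 3151 and 3105 bp against 2675 and 2807 bp. On the scaled measure HFF1 was lower than K562 (-0.56, adjusted p = 0.0314), and the mean contrast was 0.65 (SE 0.16, adjusted p = 0.00695). That call was lost without HFF1 replicate 1 (adjusted p = 0.0515), without HFF1 replicate 2 (0.0773) and with 40000 peaks (0.053).

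LUM (ENSG00000139329.5, chr12:91102629-91111494, minus strand, 8.9 kb) encodes lumican, a small leucine-rich proteoglycan that binds collagen fibrils. Its start region chr12:91111307-91112198 had folds of 8.55 and 9.04 in HFF1 and 4.85 in HEK293T replicate 2, and no peak in HEK293T replicate 1, GM12878 or K562. The rule for a start open in HFF1 alone was thus missed through 1 library, and it was met without HEK293T replicate 2, with 40000 peaks and at a −log10 q of at least 5. An intronic region, chr12:91109108-91109582, had a peak in all lines but K562, with folds of 4.07 and 4.31 in HFF1, 10.7 and 12.1 in GM12878, and 11.5 and 11.1 in HEK293T.

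Scaled body length at LUM was 22 and 19.6 in HFF1, 6.15 and 5.62 in GM12878, 13.2 and 23.6 in HEK293T, and 0 in both K562 libraries. HFF1 and HEK293T overlapped, but not unscaled, at 1171 and 954 bp against 229 and 398 bp. The mean contrast was 0.91 (SE 0.14, adjusted p = 0.00121). Within 50 kb the gap was wider, with 55.7 and 62.8 in HFF1, 5.75 and 4.5 in GM12878, 16.6 and 21.2 in HEK293T, and 0 in both K562 libraries. The difference was 2.08 (SE 0.13, adjusted p = 9.52e-06), and no alternative run ended either call. The body value ranged from 0.30 with 50 added to 2.11 with 1, and the flanking value was 0.88 at a distance of 20 kb. The interval also contains starts of the proteoglycan genes KERA and DCN, and the HFF1-only region chr12:91140073-91140983 (7.44 and 9.31) lies at an exon of DCN, so covered length here cannot be assigned to LUM alone.

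POSTN (ENSG00000133110.15, chr13:37562583-37598844, minus strand, 36.3 kb) encodes periostin, a matricellular protein of collagen-rich tissues. It had no peak at any of its 9 annotated starts and none in its body in any of the 8 libraries, HFF1 included, so its body was not tested. All of its accessible DNA was distal: 6 regions were called in HFF1 and all 6 were HFF1-only. The strongest, chr13:37539994-37540987, lay beyond the far end of the gene and is shown above, and the next, chr13:37640560-37640821, lay -41917 bp from the canonical start with folds of 13.7 and 12.7. Peaks within 50 kb numbered 6 and 7 in HFF1, 1 and 0 in HEK293T, and 0 in the 4 GM12878 and K562 libraries.

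Scaled length within 50 kb of POSTN was 41.2 and 50.0 in HFF1, 9.79 and 0 in HEK293T, and 0 elsewhere. The difference was 2.31 (SE 0.23, adjusted p = 5.74e-05). Because other libraries are at 0, its size depends on the constant added, from 0.89 with 50 to 4.96 with 1, and the call held under all 19 alternatives run. At a distance of 20 kb it could not be fitted. POSTN passed the filter on the mean of all 8 libraries only through HFF1, as no other line had a mean above 4.89. Without the filter the limma difference was still called (adjusted p = 0.000729). No protein-coding gene other than POSTN has a start within the interval, although the body of TRPC4 reaches into it.

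SPARC (ENSG00000113140.11, chr5:151661096-151686975, minus strand, 25.9 kb) encodes a collagen-binding matricellular glycoprotein. Its canonical start region chr5:151686685-151687471 had folds of 7.55 and 8.07 in HFF1, 12.3 and 13.5 in HEK293T, 4.75 and 5.87 in GM12878, and 4.24 in K562 replicate 1 with no peak in K562 replicate 2. The start was thus open in 7 of the 8 libraries. Gene body peaks numbered 7 and 6 in HFF1, 4 and 4 in HEK293T, 2 and 2 in GM12878, and 2 and 1 in K562.

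Scaled body length at SPARC was 45.0 and 45.7 in HFF1, 19.8 and 14.8 in GM12878, 73.3 and 66.2 in HEK293T, and 16.0 and 5.69 in K562. The mean contrast was 0.65 (SE 0.18, adjusted p = 0.0155), while the difference from HEK293T was -0.53 (adjusted p = 0.0702). Unscaled, HFF1 was above HEK293T, at 2398 and 2223 bp against 1273 and 1118 bp. The mean contrast was lost without HFF1 replicate 1 (0.0931), without HFF1 replicate 2 (0.0984) and at a −log10 q of at least 5 (0.0576), all adjusted p-values. Within 50 kb, HFF1 had 112 and 107 against 63.8 to 96.1 in the other libraries, with a difference of 0.42 (SE 0.08, adjusted p = 0.00168). At a distance of 100 kb the sign turned (-0.07, adjusted p = 0.259).

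THY1 (ENSG00000154096.14, chr11:119415476-119424985, minus strand, 9.5 kb) encodes a glycoprotein used as a fibroblast surface marker and also found on thymocytes and neurons. The start region chr11:119421934-119423351 was open in HFF1 (5.95 and 6.28) and GM12878 (7.13 and 6.30) and had no peak in HEK293T or K562. An exonic region of the body, chr11:119417226-119418112, was HFF1-only (5.03 and 4.64). Scaled body length was 36.8 and 46.1 in HFF1, 12.3 and 7.96 in GM12878, and 0 in the 4 HEK293T and K562 libraries.

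The groups did not overlap, and the THY1 body difference was 2.02 (SE 0.12, adjusted p = 2.72e-05). With 2 lines at 0, its size depends on the constant added, from 0.78 with 50 to 4.25 with 1. The THY1 body passed the filter on the mean of all 8 libraries only through HFF1. Without the filter the limma difference was still called (adjusted p = 0.000172). With 40000 peaks no library, HFF1 included, kept a peak in the THY1 body, and it could not be fitted. Against GM12878 alone it was 1.36 (adjusted p = 0.000323). Within 50 kb, where USP2 has a start, HFF1 had 109.9 and 102.1 and K562 103.1 and 96.1, so the 2 lines overlapped, while GM12878 (47.3 and 51.1) and HEK293T (49.7 and 52.9) were lower. Unscaled, HFF1 and K562 did not overlap, at 5850 and 4973 bp against 3102 and 2636 bp. The difference was 0.66 (SE 0.08, adjusted p = 0.000129), and against K562 alone it was 0.08 (adjusted p = 0.460). It was 1.05 at a distance of 20 kb and 0.22 at 100 kb. Of the 9 flanking regions called in HFF1, 6 were HFF1-only, 5 of them upstream of the gene and 1 beyond its far end, chr11:119402891-119403496 (13.6 and 13.3).

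PDGFRA (ENSG00000134853.12, chr4:54229280-54298245, plus strand, 69.0 kb) encodes the alpha receptor for PDGF. A pair of neighbouring regions lay near its canonical start. The first, chr4:54227670-54228361, was open in all 8 libraries, with folds of 4.05 and 4.52 in HFF1 and 6.58 to 8.65 elsewhere. The second, chr4:54228943-54229406, -213 bp from the canonical start, was HFF1-only with folds of 2.27 and 3.31, the lower of which was the smallest among all 89 HFF1-only regions of the 10 genes. Counting only a window of 500 bp, or only summits in the window, PDGFRA met the rule for a start open in HFF1 alone.

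Gene body peaks at PDGFRA numbered 9 and 10 in HFF1, 2 and 3 in GM12878, 1 and 1 in HEK293T, and 2 and 2 in K562. Scaled body length was 53.1 and 53.8 in HFF1, 22.0 and 27.7 in GM12878, 45.3 and 48.6 in HEK293T, and 18.9 and 25.5 in K562. HFF1 was the highest, and the difference was 0.67 (SE 0.11, adjusted p = 0.00125), although against HEK293T alone it was 0.16 (adjusted p = 0.311). The direction turned with 40000 peaks (-0.72, adjusted p = 0.00201), and the call was lost at HEK293T depth (0.06, adjusted p = 0.806). Within 50 kb, scaled HFF1 values (53.6 and 55.8) lay below both HEK293T libraries (58.2 and 57.5). Unscaled they lay above them, at 2851 and 2716 bp against 1011 and 971 bp. The difference within 50 kb was 0.20 (SE 0.10, adjusted p = 0.0996). It was -0.01 at a distance of 20 kb (adjusted p = 0.936), and it passed at 100 kb (0.48), at HEK293T depth (0.29) and under both other scalings (0.98 and 0.45).

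PDGFRB (ENSG00000113721.14, chr5:150113839-150155872, minus strand, 42.0 kb) encodes the beta receptor, a marker of fibroblasts and pericytes. The canonical start region chr5:150155472-150156153 was open in HFF1 (5.85 and 6.06), in GM12878 (7.02 and 6.13) and in K562 replicate 2 (4.03), and had no peak in HEK293T. Gene body peaks numbered 9 and 8 in HFF1, 6 and 5 in GM12878, 2 and 2 in HEK293T, and 5 and 5 in K562. The 4 HFF1-only regions of the body had modest folds, from 2.73 to 6.29.

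Scaled body length at PDGFRB was 71.0 and 59.9 in HFF1, 46.5 and 42.7 in GM12878, 26.1 and 30.7 in HEK293T, and 60.8 and 62.3 in K562. HFF1 and K562 overlapped (difference 0.07, adjusted p = 0.568), and the mean contrast was 0.50 (SE 0.09, adjusted p = 0.00188). Unscaled, HFF1 and K562 did not overlap, at 3777 and 2916 bp against 1830 and 1710 bp. Within 50 kb, where CSF1R, CDX1 and SLC6A7 have starts, HFF1 had 89.1 and 79.1 and overlapped GM12878 (83.1 and 87.4). Unscaled, these lines did not overlap within 50 kb, at 4742 and 3849 bp against 3365 and 3590 bp. The difference there was 0.31 (SE 0.08, adjusted p = 0.00962), and it was lost without HFF1 replicate 1 (adjusted p = 0.110) and at a −log10 q of at least 5 (0.0506). With 40000 peaks it was -0.13 (adjusted p = 0.342).

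**Figure D3:**
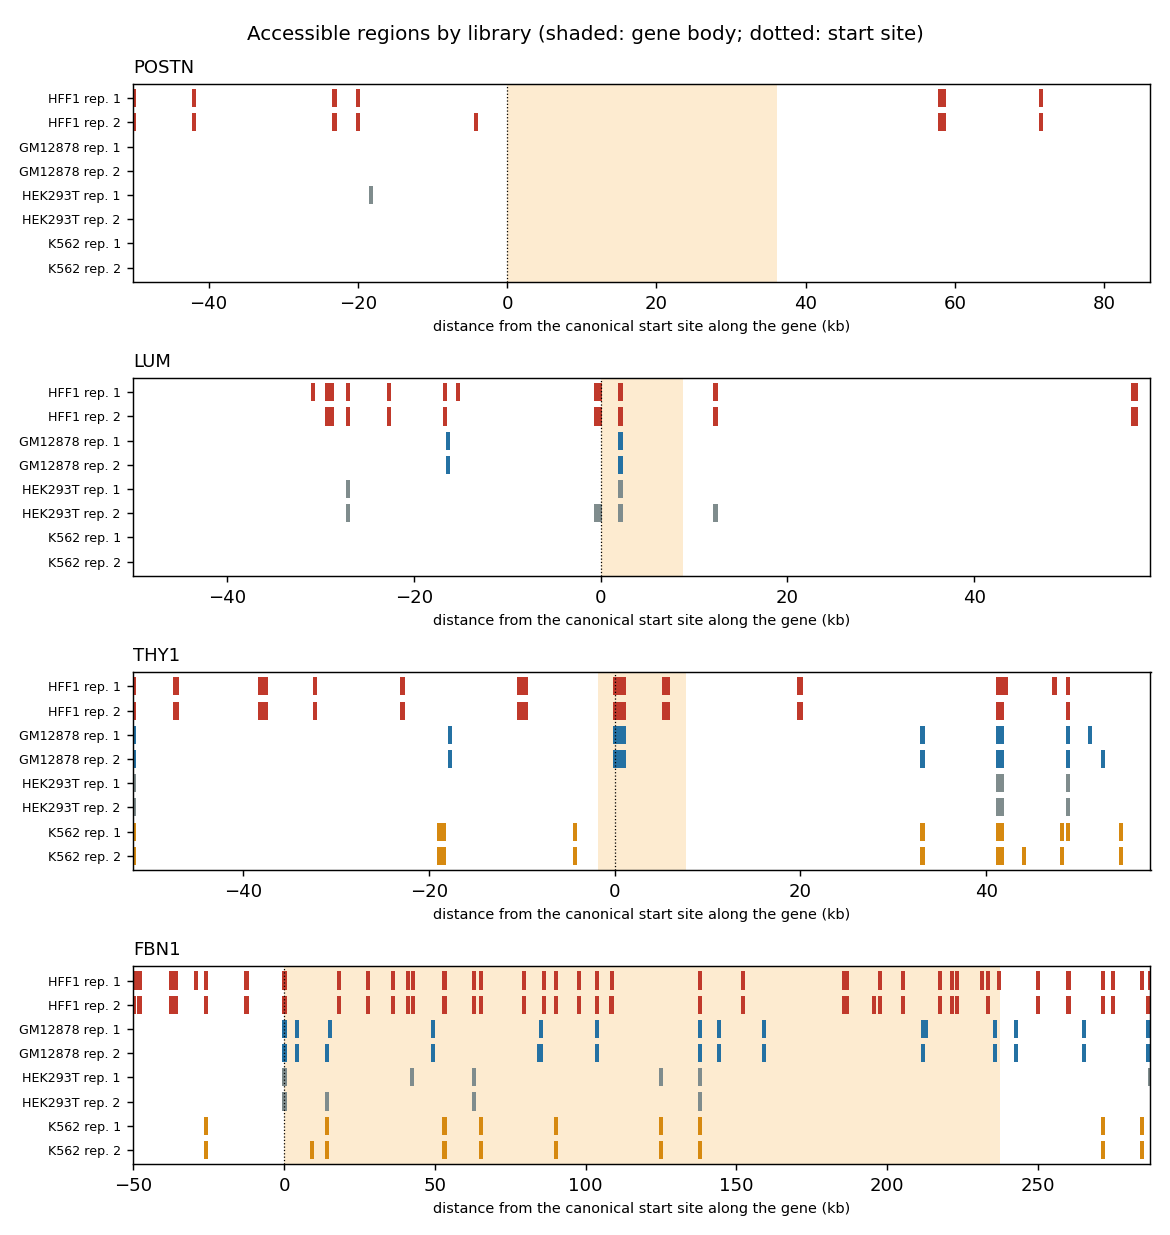
Merged accessible regions by library (rows) along genes, with distance from the canonical start in kb along the direction of the gene on the x axis; the gene body is shaded and the start marked by a dotted line. Each bar spans the merged region, and POSTN shows regions on both sides of an empty gene body, while FBN1 shows HFF1 regions along the whole gene.

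Together the 10 genes and their 50 kb flanks held 251 merged regions, of which 149 were called in both HFF1 libraries. Of these 149, 89 were HFF1-only (59.7%), and the share over all protein-coding genes was 46.7%. Here and in each zone the share was above that over all genes by less than 15 percentage points. The zones were set differently for all genes, as stated above, regions of 1 gene are not independent, and the difference was not tested. A further 43 regions were shared with some other libraries, and 17 were called in all 4 lines. Without a call in HFF1, 50 regions were called in another line with no HFF1 peak, 28 of them in GM12878 alone, 13 in K562 alone and 1 in HEK293T alone.

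**Figure D4:**
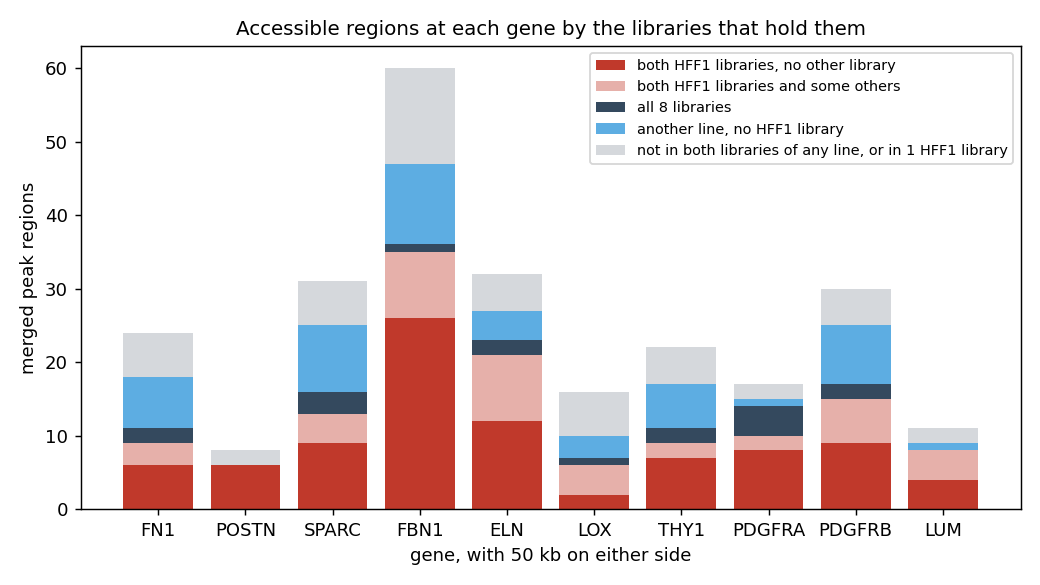
Merged accessible regions (y axis, number) at each gene with 50 kb on either side (x axis), divided by the libraries that hold them. FBN1 has the most regions, 60, with 26 in HFF1 alone, and LOX has 2 of 16 in HFF1 alone.

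The 89 HFF1-only regions had a median width of 489 bp. Their summits lay in introns for 45, between genes for 37 and in exons for 7, and 2 overlapped a start of another protein-coding gene. Of the 50 flanking regions, 37 lay upstream of the canonical start of the gene and 13 beyond its far end. The lower of the 2 HFF1 folds had a median of 5.86 and ranged from 2.27 to 15.38, close to the median of 5.93 over 39449 HFF1-only regions near all protein-coding genes. 

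Short motifs were searched on both strands in the 200 bp windows of the 89 regions. The AP-1 motif (TGAGTCA or TGACTCA) was in 17 windows (19.1%), against 23.3% of 53379 HFF1-only peaks and 18.0% of all 127356 HFF1 replicate 1 peaks searched. The TEAD motif (GGAATG or CATTCC) was in 18 (20.2%, against 20.2% and 15.4%), and the RUNX motif (TGTGGT or ACCACA) was in 18 (20.2%, against 18.7% and 16.0%). The CArG box of serum response factor was in 1 window (1.1%, against 1.3% and 1.2%). AP-1 matches were in 3 of 6 windows at POSTN, 3 of 12 at ELN and 3 of 26 at FBN1. Among the sequences shown, those of FBN1, THY1 and PDGFRA hold a TEAD match and that of LUM a RUNX match, and those of FN1, LOX, POSTN and SPARC hold none of the 4. A match is only a description of the letters.

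RefSeq promoters of GRCh38.p14 matched 7 of the 10 genes by symbol: FN1, POSTN, SPARC, FBN1, LOX, PDGFRA and PDGFRB. In the 250 bp before the start, POSTN had the lowest GC content among them, 36.4%, a CpG observed-to-expected ratio of 0.12 (percentile 13.4 among 35116 promoters), and a TATAAA match -29 bp from the start. Searched on the strand of the gene, TATAAA was in 6.8% of all promoters. FN1 had 76.4% GC and a ratio of 0.88, and FBN1 69.6% and 0.83. SPARC and PDGFRB were lower, with ratios of 0.34 and 0.43, against a median of 0.56 over all promoters. The 3 LOX promoters had ratios from 0.69 to 0.79 and the 2 of PDGFRA 0.62 and 1.0. POSTN, with the lowest CpG ratio of these promoters, was also the gene with no start-site peak in any library. SPARC and PDGFRB, also below the median ratio, had start-site peaks in both HFF1 libraries, and a link was not tested.

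Related genes of the same pathways were compared by body length in the same fit, beside a median of -0.281 over all genes and 19.6% higher. Of 12 elastic fibre genes tested, 10 were higher in HFF1 and 1 lower, with a median of 0.90. The largest changes were in MFAP4 (2.03), FBLN1 (2.03), FBLN2 (1.81) and LTBP1 (1.77), which encode microfibril-associated proteins, fibulins and a binder of latent TGF-beta. Of the 4 lysyl oxidase relatives, LOXL2 (1.35) and LOXL1 (0.65) were higher and LOXL3 (-0.46) lower, but LOXL3 turned to 0.29 without scaling and to 0.20 with 40000 peaks. Of 5 small leucine-rich proteoglycans tested, 4 were higher: ASPN (1.28), DCN (1.17), FMOD (0.57, and -0.88 with 40000 peaks) and PRELP (0.34). Among 10 adhesive and matricellular genes, 6 were higher and 2 lower, with SPARCL1 at 1.44, THBS2 at 1.21, TNC at 1.17 and SMOC2 at -1.15. Of the genes named, MFAP4, ASPN and THBS2 passed the filter on the mean of all 8 libraries only through HFF1. Without the filter, 11 of 13 elastic fibre genes were higher and 1 lower. The proteoglycans then had 6 of 7 higher and 0 lower, and the adhesive genes 6 of 10 and 1. With 40000 peaks, 2 adhesive genes were higher and 4 lower, and 2 proteoglycans were higher and 2 lower, so the direction of these lists depends on how many peaks are kept.

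The PDGF ligands and the surface genes were compared in the same way. Of 3 PDGF ligand genes tested, PDGFD (1.5) and PDGFC (1.34) were higher. Of 5 integrin genes for fibronectin receptors, ITGA8 (1.69) and ITGB3 (0.29) were higher and ITGAV (-0.72) was lower, but at 0.01 without scaling. Of 6 mesenchymal surface genes, 5 were higher and 1 lower, led by PDPN (1.91), CD44 (1.44), FAP (1.23) and NT5E (0.99), and the median was 1.11. Among these named genes, a single line exceeded HFF1 in mean scaled length at 4 that were higher in the mean contrast: TNC (66.6 in HEK293T, 59.4 in HFF1), PDGFC (120.2 in HEK293T, 113.6 in HFF1), CD44 (105.8 in GM12878, 81.6 in HFF1) and ITGB3 (87.3 in GM12878, 80.8 in HFF1). PDPN was close in HEK293T, at 57.5 against 61.0. Within 50 kb, where 21.3% of all genes were higher and 46.4% lower and where several of these calls turn without scaling or at other distances, the elastic fibre list had 7 of 13 higher and 2 lower, the proteoglycans 5 of 7 and 1, the adhesive genes 7 of 10 and 2, the lysyl oxidase relatives 1 of 4 and 2, the PDGF ligands 3 of 4 and 0, the integrins 2 of 5 and 1, and the surface genes 3 of 6 and 1. These are counts of few genes and were not tested as lists.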

How the data were processed

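Bulk ATAC-seq was measured in 10 libraries, of which the 8 from human lines were used and the 2 from mouse embryonic stem cells were not. The authors deposited 1 peak list per library, so replicates were not pooled. Each deposited peak has a position, a summit, a score, a ratio (fold over local background), and a −log10 p-value and −log10 q-value. The submitters' processing notes name cutadapt 3.2, Bowtie2 2.4.2, Picard and MACS2 2.2.7.1 and the build hg38, with no role or order. Thresholds, read shift and duplicate handling are not given in the sources used here. The lists carry no read numbers. A background level was therefore solved from the fold and −log10 p of each peak. It solved 97.06% to 100% of the peaks of a library, and it sets the precision only as a relative depth.

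Peaks on the autosomes and X were compared with GENCODE 44 gene models at an overlap of at least 1 bp. A gene was counted as higher in HFF1 when both HFF1 libraries exceeded each of the other 6. Covered bp per Mb covered by all peaks of the library was tested with limma 3.58.1 in R 4.3.3 on log2(value + 10), for genes with a mean of at least 5, with all 4 lines in 1 fit and Benjamini-Hochberg adjustment over all genes. That mean was taken over all 8 libraries, HFF1 included, so a gene could pass through HFF1 alone. Without scaling, 300 bp was added in place of 10. Intervals of neighbouring genes overlap, so genes are not independent. Merged regions were assigned to a line on a peak in each of its 2 libraries. Scripts were tested on simulated data. The alternatives were other windows and distances, summits in place of overlap, a −log10 q of at least 5, the 40000 strongest peaks, other constants and scalings, no filter, no trend, a replicate block and leaving out each library. The canonical start and HEK293T depth were added after seeing the data. The 10 genes, the related lists and the markers were chosen with earlier results of these data known. All 10 genes are named, and from each related list at most the 4 called genes with the largest body difference; LOXL3 and ITGAV fall under the same rule, and counts cover the rest.

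Replicate numbers do not pair the libraries. Correlations of replicate differences between lines, across genes, lay between -0.0212 and 0.0335.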

Additional observations from a re-analysis of the deposited data

How the results depend on the processing

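The number of the 10 genes with a start open in HFF1 alone was 0, and it was 1 with a window of 500 bp (PDGFRA), by summits (PDGFRA), at a −log10 q of at least 5 (LUM) and with 40000 peaks (LUM). Leaving out each library in turn gave 0 to 1, with 1 (LUM) without HEK293T replicate 2. With 40000 peaks, genes with more body peaks in HFF1 fell to 2, those with more peaks within 50 kb to 3, and those with more scaled length within 50 kb to 5. With 40000 peaks, 4935 gene bodies were called lower. Without scaling, 9980 bodies were higher and 1344 lower, and 13590 and 1474 within 50 kb. With the median of ratios the numbers were 5496 and 3996, and 6334 and 5276. Single genes turned sign in 4 cases: the PDGFRA body (-0.72) and PDGFRB within 50 kb (-0.13), both with 40000 peaks, PDGFRA within 50 kb at a distance of 20 kb (-0.00885), and SPARC within 50 kb at 100 kb (-0.0681). Among the other settings for single genes, 14 ended a call and 14 added one. The cause was not tested. The THY1 body with 40000 peaks and POSTN at a distance of 20 kb fell under the filter and could not be fitted.

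The replicate block, run although the numbers do not pair the libraries, left 3242 bodies higher and 8186 lower, and 4003 and 8769 within 50 kb. It changed none of the calls of the 10 genes, 8 of which were higher in each zone.

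Depth differed between the lines. HEK293T was the shallowest line, read numbers are not in the lists, and a peak list holds presence above a threshold, so a region without a peak is not shown to be closed. With 2 libraries a line, the test rests on a spread shared by all 4 lines. HFF1 is the only fibroblast line.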
